A study of Homo sapiens with 10 samples.

Results

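The loci of 3 RNA-binding protein genes of pluripotent cells, LIN28A, LIN28B and L1TD1, were examined in a genome-wide list of nucleosome positions. Each region was the gene body in GENCODE release 44 on GRCh38 with 10 kb added on each side, and every position whose midpoint fell inside was kept. The 3 regions held 1131 of the 12921589 positions in the list, 204 around LIN28A, 738 around LIN28B and 189 around L1TD1. The rule for the regions uses gene coordinates and no score.

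The list came from human induced pluripotent stem cells (hiPSCs) of the line PB010.5, which carries the fluorescent cell cycle reporter FUCCI. Micrococcal nuclease (MNase), which cuts linker DNA more readily than DNA wrapped on histones, had been applied for 5 min in 5 amounts, the smallest 0.5 U and the largest 10 U with 1 U, 3 U and 6 U between them, and each amount gave 1 library. Yeast mononucleosomal DNA was added to each before library preparation. Each library was sequenced with 150-bp and with 50-bp reads, which made the 10 samples. The deposited list merged libraries, so no value of a single MNase amount was analysed here, no replicate error could be given, and no test was run. The line is a single cell line, and a list of positions holds no expression, so the cell type could not be checked against marker genes.

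LIN28A and LIN28B are paralogs with a cold-shock domain and zinc knuckles. They bind the terminal loop of let-7 precursors and block their processing. LIN28A does so with the uridylyl transferases TUT4 and TUT7, after which the exonuclease DIS3L2 degrades the precursor. Mature let-7 in turn represses both genes through their 3′UTRs. L1TD1 is an RNA-binding protein derived from the first open reading frame of a LINE-1 retrotransposon, and human pluripotent cells express it together with LIN28A.

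Every position was an interval of 140 bp with 1 score, a signal height whose scaling is not given in the sources used here. Scores rose in steps of 1.23, and the median over the whole list was 14.8. The reads behind a score are unknown, and a score is no more precise than 1 step. Midpoints on a 10-bp grid made up 94.1% of the positions at LIN28A, 93.1% at LIN28B and 94.2% at L1TD1, so distances are precise to about 10 bp. Scores and densities both moved with GC content. A score was therefore given a GC-matched percentile, its rank among all positions of the chromosome whose surrounding DNA, of the length of a nucleosome core, had the same number of G and C bases within 1. Numbers of midpoints were set against those expected from the rate per base of the chromosome at the same GC content.

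The bases just upstream of the annotated starts show where the list placed nucleosomes at each promoter. The 250 bases before the start are given for the 5 distinct starts of the 3 genes, from hg38, with bases inside a position in capitals and bases in none in lower case.
LIN28A-202, chr1:26410567-26410816, plus strand: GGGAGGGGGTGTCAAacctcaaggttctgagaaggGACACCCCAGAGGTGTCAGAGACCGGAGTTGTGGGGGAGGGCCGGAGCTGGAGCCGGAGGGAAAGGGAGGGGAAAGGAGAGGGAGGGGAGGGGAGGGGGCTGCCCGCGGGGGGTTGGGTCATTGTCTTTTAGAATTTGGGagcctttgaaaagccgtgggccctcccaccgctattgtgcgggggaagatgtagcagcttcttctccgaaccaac
L1TD1-201, chr1:62194599-62194848, plus strand: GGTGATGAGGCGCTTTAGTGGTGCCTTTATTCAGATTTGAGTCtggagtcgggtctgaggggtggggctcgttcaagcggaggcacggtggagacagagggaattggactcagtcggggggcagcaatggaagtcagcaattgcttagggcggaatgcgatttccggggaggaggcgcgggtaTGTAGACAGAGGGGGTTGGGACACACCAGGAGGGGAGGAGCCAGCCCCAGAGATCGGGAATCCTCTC
LIN28B-202, chr6:104936366-104936615, plus strand: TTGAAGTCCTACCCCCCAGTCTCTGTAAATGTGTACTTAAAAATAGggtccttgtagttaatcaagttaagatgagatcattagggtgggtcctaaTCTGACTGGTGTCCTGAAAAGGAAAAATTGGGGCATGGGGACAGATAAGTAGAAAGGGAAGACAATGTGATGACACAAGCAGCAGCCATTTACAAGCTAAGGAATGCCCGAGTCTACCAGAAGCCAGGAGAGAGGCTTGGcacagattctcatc
LIN28B-203, chr6:104940616-104940865, plus strand: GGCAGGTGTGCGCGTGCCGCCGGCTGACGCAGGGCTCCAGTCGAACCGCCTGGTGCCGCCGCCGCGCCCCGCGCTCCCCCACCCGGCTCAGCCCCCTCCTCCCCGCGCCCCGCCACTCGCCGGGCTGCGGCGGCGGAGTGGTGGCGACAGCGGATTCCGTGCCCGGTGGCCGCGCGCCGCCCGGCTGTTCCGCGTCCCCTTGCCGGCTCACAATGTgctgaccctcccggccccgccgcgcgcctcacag
LIN28B-201, chr6:104956857-104957106, plus strand: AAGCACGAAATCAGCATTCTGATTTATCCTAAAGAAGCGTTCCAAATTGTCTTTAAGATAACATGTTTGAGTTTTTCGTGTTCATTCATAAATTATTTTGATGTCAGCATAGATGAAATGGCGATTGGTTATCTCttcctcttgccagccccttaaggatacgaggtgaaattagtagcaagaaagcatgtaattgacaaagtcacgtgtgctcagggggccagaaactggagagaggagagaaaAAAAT
The lower-case stretches are the bases left between positions. They came to 95 of 250 bases at LIN28A, 140 at L1TD1, 64 at LIN28B-202, 34 at LIN28B-203 and 110 at LIN28B-201. The upstream sequence of LIN28B-203 was a CpG-rich promoter of 79.6% GC with 39 CpG dinucleotides, and that of LIN28B-201 had 38.4% GC and 6.

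LIN28A had a well-covered nucleosome just inside the gene and a weaker one upstream. Its transcripts LIN28A-201 and LIN28A-202 share the start at chr1:26410817. The +1 nucleosome, centred 85 bp downstream, scored 38.2, at GC-matched percentile 91.3. This score was among the highest of the region, tied with a position in the upstream flank and another in the downstream flank. Among the first downstream positions of 335 canonical protein-coding starts of chromosome 1 with like GC content, the score stood at percentile 79.3. The nearest upstream midpoint lay 145 bp from the start and scored 17.3, at percentile 23.7. The 230 bp between both midpoints were close to the median of 225 bp over the same 335 starts. Further out, the next position downstream scored 21.0 at 255 bp. No midpoint was then listed until 565 bp.

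At L1TD1, the order was the other way round. A position centred 3 bp downstream of the start at chr1:62194849 lay over the start itself and scored 6.17, or 5 steps. That was GC-matched percentile 0.575. Among the first downstream positions of 318 starts of chromosome 1 with like GC content, the score stood at percentile 0.786. The next positions at 103 bp and 303 bp scored 7.40 and 8.64, at percentiles 4.13 and 6.26. Upstream, positions centred 277 bp and 437 bp from the start scored 28.4 and 29.6, at percentiles 88.6 and 89.7. The nearest positions upstream thus scored higher than the nearest ones downstream, but farther out the order did not hold, with 9.87 (percentile 15.6) at 657 bp upstream and 19.7 (percentile 34.3) at 423 bp downstream. No midpoint was listed in the 200 bp upstream, which was also the case at 27.0% of the 318 starts. The midpoints on both sides were 280 bp apart, or 700 bp with only positions at or above the median score of the list. The empty 200 bp and the 280 bp both rest on the midpoint 3 bp downstream. That offset is smaller than the precision of the list. With this midpoint just upstream of the start, the 200 bp would hold it. The distance across the start would then be the 100 bp to the next midpoint.

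LIN28B has 3 annotated starts, and the list differed between them. At the 5′-most, LIN28B-202 at chr6:104936616, nucleosomes flanked the start closely, with scores above the median for their GC content. The upstream midpoint at 84 bp scored 32.1 (percentile 96.2), the downstream one at 96 bp scored 27.1 (percentile 88.6), and they were 180 bp apart. Among the first downstream positions of 56 starts of chromosome 6 with like GC content, the downstream score stood at percentile 69.6. At the CpG-rich start of LIN28B-203, chr6:104940866, the scores on both sides were 16.0 at 104 bp upstream and 13.6 at 146 bp downstream, at percentiles 41.4 and 29.0. At the canonical start of LIN28B-201, chr6:104957107, a position centred 65 bp downstream reached over the start with a score of 14.8 (percentile 50.2), and the upstream midpoint at 185 bp scored 12.3 (percentile 67.4). Both of the latter starts had 250 bp between midpoints. With only positions at or above the median score of the list, the canonical start had 790 bp. The antisense gene LIN28B-AS1, which starts at chr6:104941447, had 120 bp, with scores of 12.3 upstream and 17.3 downstream.

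**Figure D1:**
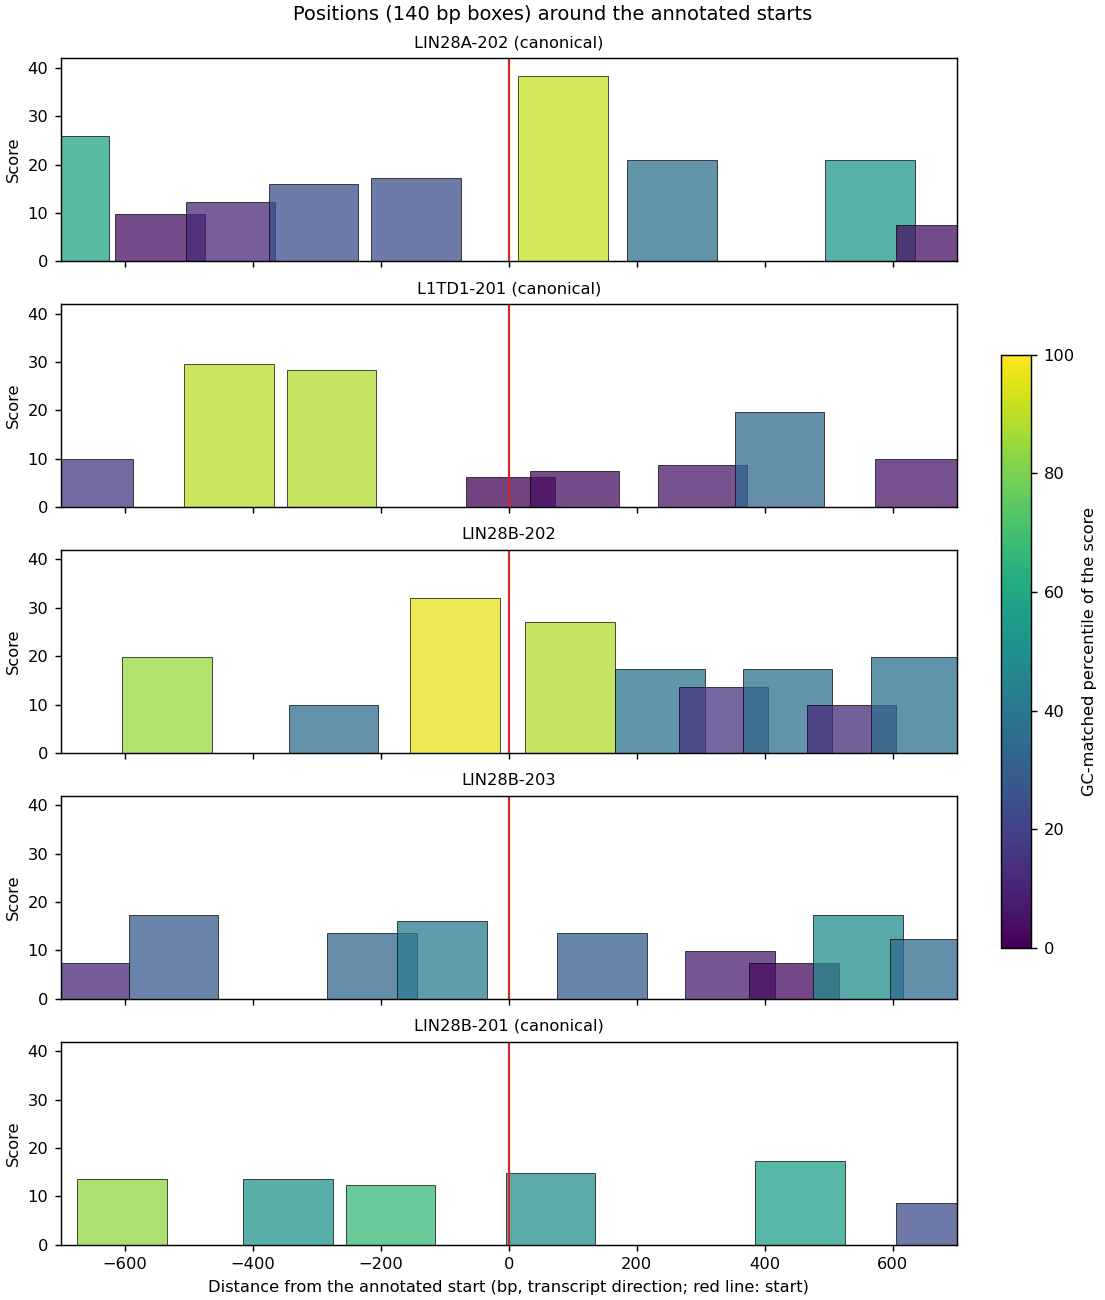
Nucleosome positions within 700 bp of 5 annotated starts of LIN28A, L1TD1 and LIN28B; each box is a 140-bp position, its height is the score and its colour the GC-matched percentile, against distance from the start in bp. The box after the LIN28A start reaches 38.2, and the box over the L1TD1 start reaches 6.17.

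Short promoter motifs were searched in these 250 bases on both strands, and their share among the same 250 bases of 35116 RefSeq promoters (GRCh38.p14) is given as background. The E-box CACGTG, found in 6.34% of promoters, occurred at LIN28B-201 from -47 to -42, in the stretch between positions. The CCAAT box (CCAAT or ATTGG, 32.01% of promoters) occurred at L1TD1 from -148 to -144, outside positions, and inside positions at LIN28B-202 from -128 to -124 and at LIN28B-201 from -127 to -123. The GC box (GGGCGG or CCGCCC, 42.6%) occurred at L1TD1 from -103 to -98, outside positions, and at LIN28B-203 from -74 to -69, inside one. The octamer ATTTGCAT or ATGCAAAT (1.63%) and the TATA box TATAAA or TTTATA (10.7%) had no match in these 5 windows. LIN28A had no match to any of the motifs. A match is a run of letters and not a measured binding site.

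POU5F1, SOX2 and NANOG, transcription factors of the pluripotency core, gave other combinations at their canonical starts. The midpoints across the start were 290 bp apart at POU5F1, 230 bp at SOX2 and 260 bp at NANOG. The first downstream positions scored 24.7 (percentile 62.7), 21.0 (percentile 76.9) and 25.9 (percentile 92.0). Of the first downstream positions at the canonical starts of these 3 genes and of LIN28A, LIN28B and L1TD1, that of L1TD1 had the lowest score and the lowest GC-matched percentile. LIN28A had the highest score, while the percentile of NANOG, 92.0, was above its 91.3. DHDDS, a dolichol synthesis gene that begins in the downstream flank of LIN28A, had 270 bp across its start and a first downstream position of 34.5 (percentile 94.4).

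Over the whole regions, LIN28A was covered at close to its expected density. It held 5.24 midpoints per kb, 1.02 times the number expected from GC content, with a median score of 17.3 and quartiles of 12.3 and 23.4. Among 410 windows of the same length and like GC content on chromosome 1, its density lay at percentile 25, and its median score at percentile 43.9 of the 403 windows that held positions. The expected rate averages over the whole chromosome, and with stretches of 5 kb or more without a midpoint left out of it, the ratio was 0.97 at LIN28A, 1.04 at LIN28B and 0.97 at L1TD1.

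LIN28B was AT-rich, with 37.3% GC, and held 4.43 midpoints per kb, 1.06 times the expected number. Its density was at percentile 44.3 of 246 windows of chromosome 6. Its median score of 13.6 was 1 step above the windows' median of 12.3, and lay at percentile 89.4.

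L1TD1 held 5.04 midpoints per kb, 1.01 times the expected number, with a median score of 16.0 and quartiles of 9.87 and 21.0. Its density was at percentile 19.9 of 500 windows, and its median score at percentile 31.0 of 492. Its mean score of 16.1 was at percentile 9.35, against a median of 17.8 for the mean scores of the windows. Its highest score, 37.0, was below the highest of LIN28A, 45.7, and of LIN28B, 43.2. The percentiles depended on the windows chosen. In the gene bodies without flanks, the median score stood at percentile 20.1 for LIN28A, 95.6 for LIN28B and 57.8 for L1TD1, so that of L1TD1 passed to the upper side of its windows. Without GC matching, it stood at 79.1, 51.2 and 68.4, and the density at 69.4, 32.5 and 57.2. With only positions at or above the median score of the list, the density of LIN28B stood at 84.1.

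High positions were those above the 90th percentile of positions with the same GC content, a share of 8.67% on chromosome 1 and 8.62% on chromosome 6. LIN28A had 31 of 204, or 15.2% (95% Wilson interval 10.9% to 20.8%). LIN28B had 80 of 738, or 10.8% (8.80% to 13.3%). L1TD1 had 8 of 189, or 4.23% (2.16% to 8.13%). The intervals of LIN28A and LIN28B lay above the share of their chromosome and that of L1TD1 below it, at LIN28B and L1TD1 by less than 1 percentage point. These placements depended on the settings. In the gene bodies alone, the shares were 11.5% (6.52% to 19.4%) at LIN28A and 5.81% (2.51% to 12.9%) at L1TD1, and both intervals then held the share of the chromosome. With GC content taken over about 1 kb, they were 12.3% (8.44% to 17.5%) and 5.82% (3.28% to 10.1%), against 8.82% on chromosome 1. Without GC matching, L1TD1 had 5.29% (2.90% to 9.46%) against 8.38%, and LIN28B fell below its chromosome, with 6.64% (5.06% to 8.67%) against 9.17%. These intervals cover counting error only, and neighbouring positions, which can overlap, are not independent. High positions were 12 of the 54 in the upstream flank of LIN28A, 9 of 80 in its introns, 2 of 16 in its exons and 8 of 54 in its downstream flank. At L1TD1, they were 1 of 49 upstream, 3 of 68 in introns, 2 of 18 in exons and 2 of 54 downstream. At LIN28B, introns held 68 of 608, exons 3 of 28, the upstream flank 5 of 53 and the downstream flank 4 of 49.

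**Figure D2:**
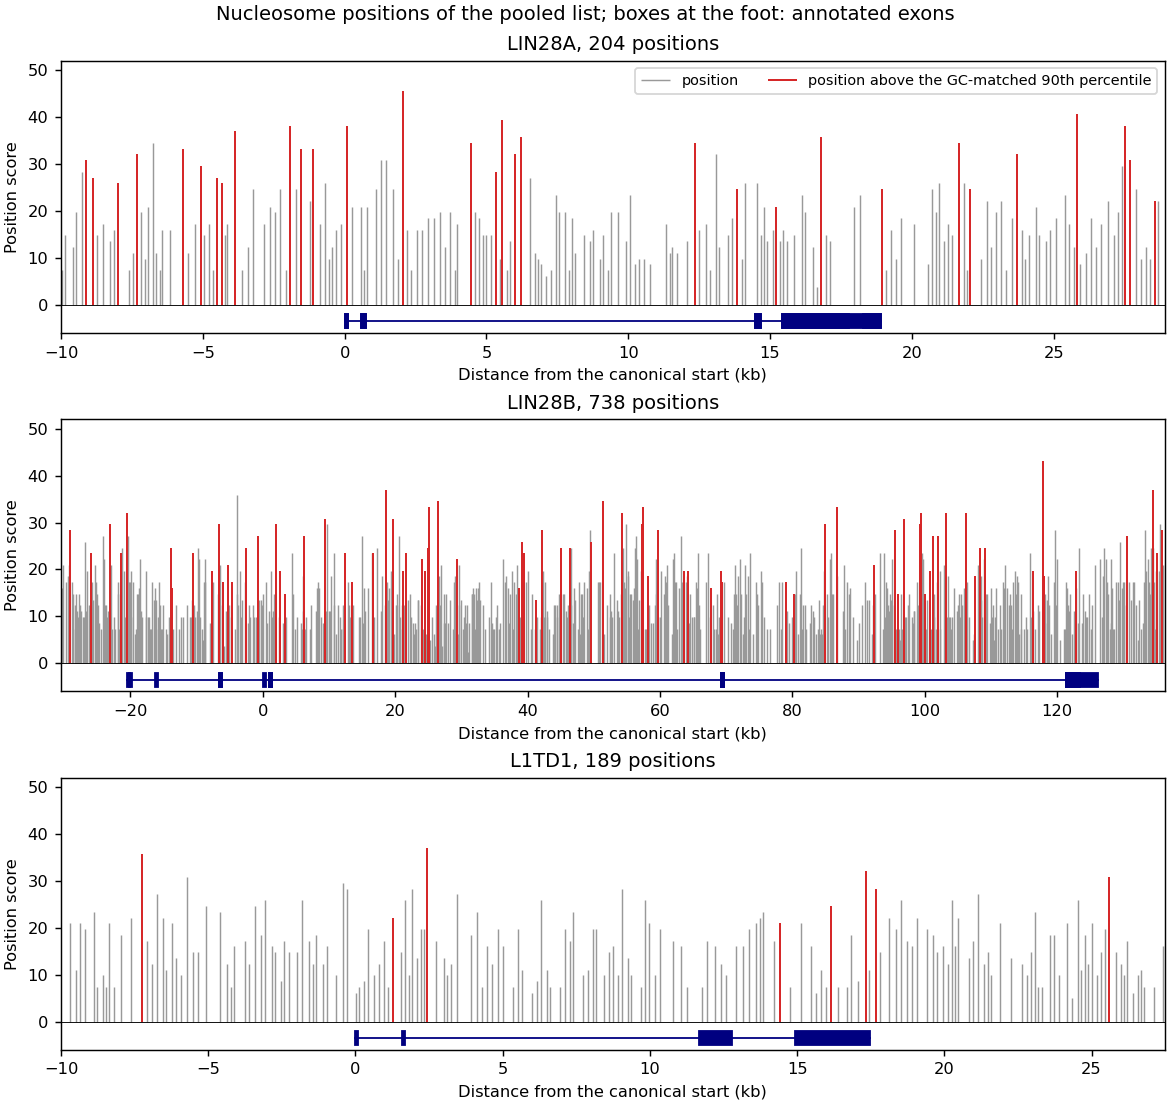
Score of every position (vertical line) against distance from the canonical start in kb for LIN28A, LIN28B and L1TD1, with high positions in red and annotated exons as boxes at the foot. High positions number 31, 80 and 8, and the longest stretch without lines in LIN28A lies over its last exon.

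**Figure D3:**
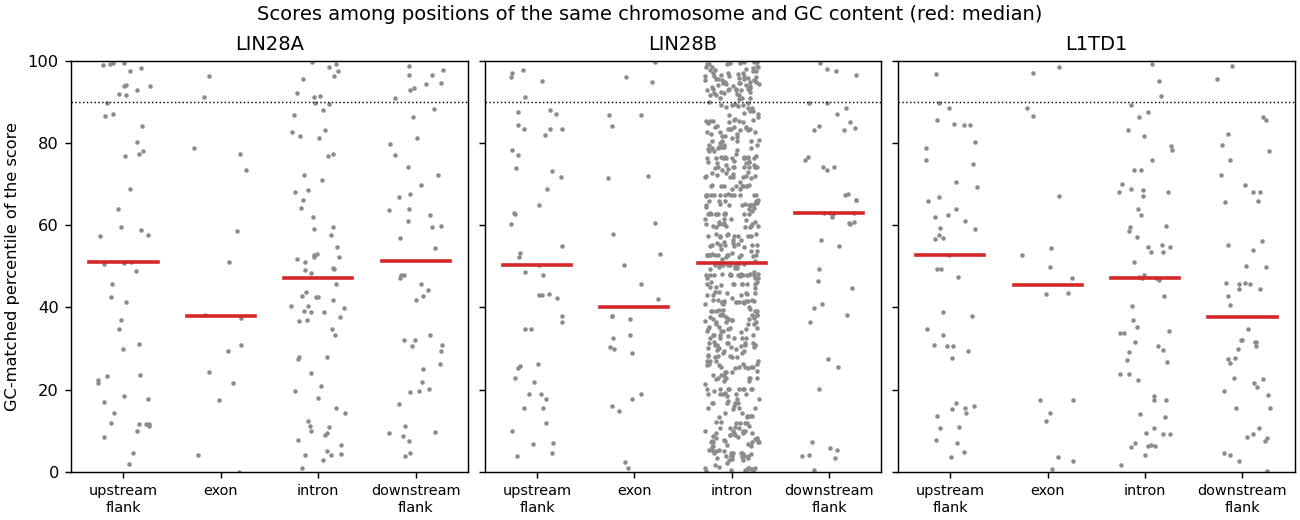
GC-matched percentile of the score of each position (point) in the flanks, exons and introns of the 3 regions, with the median of each class in red and a dotted line at percentile 90. Class medians run from 37.6 in the downstream flank of L1TD1 to 63.0 in that of LIN28B.

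The highest-scoring positions of the regions lay in introns. That of LIN28A, the highest of the 3, is printed with all bases in capitals, since the whole stretch is inside a position.
LIN28A, chr1:26412822-26412961, plus strand: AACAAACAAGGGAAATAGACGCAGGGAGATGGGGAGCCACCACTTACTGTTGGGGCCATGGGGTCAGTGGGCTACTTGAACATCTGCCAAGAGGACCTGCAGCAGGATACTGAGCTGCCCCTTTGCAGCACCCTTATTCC
The LIN28A position, in intron 2, scored 45.7 (GC-matched percentile 99.2), and none of its 109 words of 32 bases occurred elsewhere in the main chromosomes. The highest score of LIN28B, in intron 3, was 43.2 (percentile 99.5), and that of L1TD1, in intron 2, was 37.0 (percentile 95.3). The next highest were 40.7 in the downstream flank and 39.5 in intron 2 at LIN28A, 37.0 in intron 2 and 37.0 in the downstream flank at LIN28B, and 35.8 in the upstream flank and 32.1 in exon 4 at L1TD1.

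The weakest positions were 3.70 in the 3′UTR of LIN28A, 2.47 in intron 2 of LIN28B and 4.94 in the downstream flank of L1TD1. In steps, these were 3, 2 and 4. The position over the L1TD1 start had the next score up in its region, 6.17, as did positions in intron 2, exon 4 and the downstream flank.

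In the coding exons, LIN28A exon 2 had 71.1% GC and its only midpoint belonged to a weak position at chr1:26411422-26411561, with a score of 7.40 (percentile 4.06). Exon 3 of LIN28A had 2 midpoints, and the position with the larger overlap scored 25.9 (percentile 77.4). In LIN28B, exon 2 was overlapped over 95 bp by a position of score 19.7 (percentile 71.6), and exon 3 over 74 bp by one of the same score at chr6:105026232-105026371 (percentile 95). Exon 4 of LIN28B, which holds the stop codon and the 3′UTR, had 20 midpoints where 21.6 were expected.

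A 49-bp exon used by LIN28B-202 and LIN28B-203 but not by the canonical transcript lay wholly within the position chr6:104950422-104950561, which scored 29.6. That was percentile 99.9 at its GC content. L1TD1 exon 1 was covered by the weak position over the start, and exon 2 had no midpoint, with 57 of its 94 bp inside a position of score 25.9 (percentile 78.4). The large coding exons 3 and 4 of L1TD1 held 5 and 12 midpoints against 4.41 and 12.3 expected, with median scores of 12.3 and 11.1.

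Among the 3′UTRs of the canonical transcripts, that of LIN28A, in its last exon, had the lowest ratio of observed to expected midpoints. Its 3270 bp held 10 midpoints where 17.1 were expected, a ratio of 0.58. The 3′UTR of LIN28B had 18 against 19.5 (0.92) and that of L1TD1 5 against 4.83 (1.04). Of the 32-base words in the LIN28A 3′UTR, 39.3% occurred elsewhere in the genome, against 17.6% in LIN28B and 30.5% in L1TD1. In the bases of the LIN28A 3′UTR that were mostly unique, 8 midpoints stood against 10.6 expected (0.75), and in the mostly repeated bases 2 against 6.50 (0.31). The ratio was closer to 1 in unique sequence, where it rests on 8 positions. Over the whole LIN28A region, the ratios were 1.06 in mostly unique and 0.86 in mostly repeated bases. Intron 2 of LIN28A, the longest, held 73 against 69.7, and introns 2 and 3 of LIN28B held 302 against 282.7 and 217 against 211.3.

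**Figure D4:**
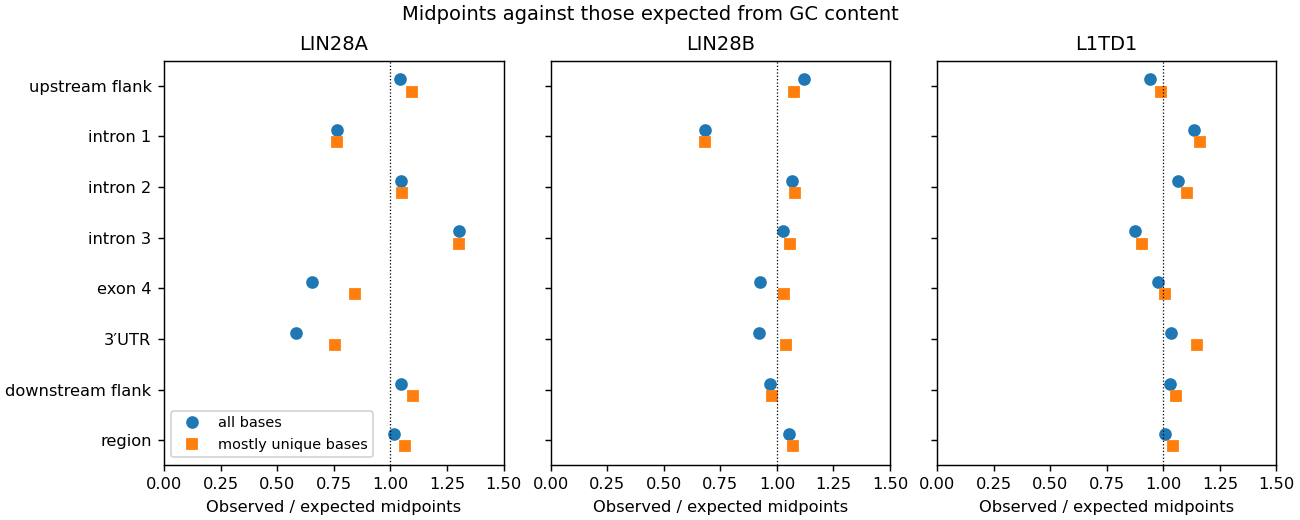
Observed over expected midpoints in the introns, last exon, 3′UTR, flanks and whole region of each gene, for all bases (circles) and mostly unique bases (squares), with a dotted line at 1. The LIN28A 3′UTR stands at 0.58 for all bases and 0.75 for unique ones.

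Distances across the annotated 3′ ends were 105 bp to 775 bp. At the end of LIN28A-202, the last midpoint before the end was 751 bp away, the next one 24 bp after it scored 24.7 (percentile 94.8), and 775 bp separated both. At LIN28B-201 the distances were 460 bp and 195 bp, and 655 bp lay between midpoints. The flanking positions there scored 21.0 (percentile 86.8) and 22.2 (percentile 87.1). At L1TD1 the 3′ end lay between midpoints 46 bp before and 184 bp after it, 230 bp apart. The ends of the shorter LIN28B transcripts had 105 bp (LIN28B-202) and 435 bp (LIN28B-203), so the spread within LIN28B took in the value of L1TD1.

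Members of the let-7 family share bases 2 to 8, the seed, in capitals here. The 9 mature sequences of the family in RefSeq (GRCh38.p14), miR-98 included, have the seed GAGGUAG, and let-7a stands for them.
hsa-let-7a-5p: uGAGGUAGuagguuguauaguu
The complement of the seed, CTACCTC on the sense strand, was searched in the annotated 3′UTRs, since these are the DNA that encodes the let-7 target sites. LIN28A had 1 match and LIN28B 4. L1TD1 had none in 956 bp. Of canonical protein-coding 3′UTRs at least as long that lie in a single exon, 18.3% held a match within the first 3270 bases, 23.3% within the first 4549 and 5.62% within the first 956. The matches are printed with the seed match in capitals.
LIN28A 3′UTR, chr1:26427348-26427370, plus strand: gcacagcctattgaaCTACCTCa
LIN28B 3′UTR, chr6:105078812-105078834, plus strand: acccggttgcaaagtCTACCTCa
LIN28B 3′UTR, chr6:105081239-105081261, plus strand: tactgatgatagtaaCTACCTCt
LIN28B 3′UTR, chr6:105081421-105081443, plus strand: gtttacagcaaaaggCTACCTCa
LIN28B 3′UTR, chr6:105082860-105082882, plus strand: aaatgatggtgttgaCTACCTCt
The LIN28A match lay inside a position of score 12.3 (percentile 21.7), with its midpoint 44 bp away. The first LIN28B match, 44 bp after the stop codon, and the second, 2471 bp after it, lay in no position. The third lay near the edge of a position of score 11.1 (percentile 57.9), 57 bp from its midpoint. The fourth was 6 bp from the midpoint of a position of score 21.0 (percentile 86.8). No RNA or miRNA was measured here.

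Distances between neighbouring midpoints had medians of 170 bp at LIN28A, 190 bp at LIN28B and 180 bp at L1TD1, against 180 bp on both chromosomes. Distances of 300 bp or more were 13.0% of those on chromosome 1 and 15.5% of those on chromosome 6, without regard to GC content. LIN28A had 20 such distances of 203 (9.85%), L1TD1 29 of 188 (15.4%) and LIN28B 143 of 737 (19.4%). LIN28B was the only one of the 3 with a longer median than its chromosome.

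**Figure D5:**
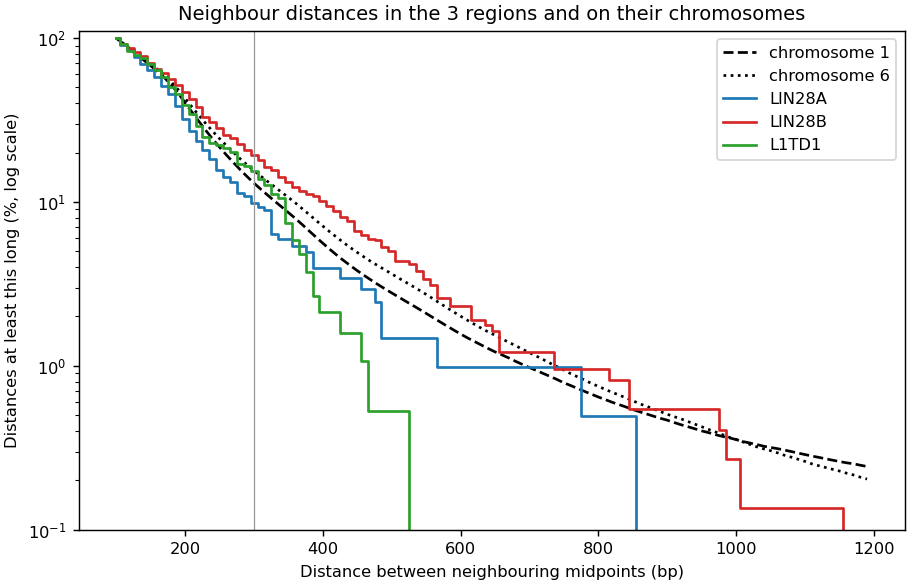
Share of neighbour distances at least as long as the value on the x axis (bp), in percent on a log scale, for the 3 regions (coloured) and their chromosomes (black), with a grey line at 300 bp. At 300 bp the LIN28A line stands at 9.85% and the LIN28B line at 19.4%.

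The widest distances stood in different kinds of sequence. In LIN28A, the widest, 850 bp and 775 bp, both fell in exon 4, and 66.4% and 55.8% of the words between the positions occurred elsewhere in the genome, against 21.9% over the whole region and 21.4% over its 20 distances of 300 bp or more. The next, 560 bp in intron 2, had 6.43% such words and 33.3% GC. In LIN28B, the widest was 1150 bp in intron 3, with 26.7% GC and no word found elsewhere. It was followed by 1000 bp in intron 2, with 15.8% GC and 34.6% of words elsewhere, and 980 bp in intron 2 with 31.5% GC and 2.60%. L1TD1 had 520 bp in intron 2, reaching into exon 3, 460 bp in the upstream flank and 455 bp in intron 2, none with a word found elsewhere. Of distances of 500 bp or more, LIN28B had 37, of which 5 had at least 50% of their words elsewhere. LIN28A had 3, of which 2 did, and L1TD1 had 1, which did not. Over all words, the share found elsewhere was 13.5% in the LIN28B region and 11.8% in its distances of 300 bp or more, and 27.5% and 19.8% at L1TD1. Wide distances as a set thus held no larger share of repeated words than the regions. Midpoints were nevertheless fewer against expectation in mostly repeated than in mostly unique bases of each region. The ratios were 0.86 and 1.06 at LIN28A, 0.97 and 1.07 at LIN28B, and 0.92 and 1.04 at L1TD1. A role of repeats in missing positions was not tested.

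The middle 140 bases of the widest distance in each region whose centre lay outside exons are printed for contrast with the highest-scoring position of LIN28A, in lower case since no base lies in a position.
LIN28A, chr1:26421781-26421920, plus strand: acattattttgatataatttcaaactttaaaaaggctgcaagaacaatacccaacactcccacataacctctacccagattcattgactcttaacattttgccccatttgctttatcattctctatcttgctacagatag
LIN28B, chr6:105034176-105034315, plus strand: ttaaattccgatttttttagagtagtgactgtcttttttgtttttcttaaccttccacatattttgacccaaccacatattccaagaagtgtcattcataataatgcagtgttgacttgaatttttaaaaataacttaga
L1TD1, chr1:62206291-62206430, plus strand: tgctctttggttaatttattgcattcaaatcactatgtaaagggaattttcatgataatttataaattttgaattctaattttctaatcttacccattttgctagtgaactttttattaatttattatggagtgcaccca
Their GC content was 34.3% at LIN28A, 28.6% at LIN28B and 25.7% at L1TD1. The 140 bases of the highest-scoring LIN28A position had 55.0%. None of the words in these 3 stretches occurred elsewhere.

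The other protein genes of the LIN28 and let-7 pathway were taken from a list of 13. It held TUT4, TUT7 and DIS3L2, which act on precursors bound by LIN28A, the microRNA processing genes DROSHA, DGCR8, XPO5, DICER1 and TARBP2, the ubiquitin ligase TRIM71, and the let-7 targets HMGA2, IGF2BP1, IGF2BP2 and IGF2BP3. Midpoints across the canonical start were 300 bp or more apart in 5 of 13 (38.5%), against 30.5% of 19971 canonical protein-coding starts. The first downstream position was above GC-matched percentile 90 in 3 of 13 (23.1%), against 21.1%. Both shares were within 2 genes of the background. LIN28A, LIN28B and L1TD1 with 230 bp, 250 bp and 280 bp had none of 300 bp or more. With only positions at or above the median score of the list, LIN28B and L1TD1 did, with 790 bp and 700 bp. The median over the 13 genes was 240 bp and over all starts 230 bp.

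The widest were TARBP2, a partner of Dicer, with 380 bp, TUT4 with 370 bp and TUT7 with 350 bp. The narrowest were IGF2BP2 with 100 bp, DGCR8, the partner of Drosha, with 140 bp, and TRIM71 with 165 bp. At IGF2BP2, the midpoint counted as downstream lay on the start itself. Its 100 bp was also the shortest distance across any of the 19971 canonical starts, and 140-bp positions at that distance overlap. The first downstream position scored highest for its GC content at XPO5, the export receptor of precursors, with 56.8 (percentile 99.5), at DIS3L2 with 49.4 (percentile 98.8) and at TARBP2 with 44.4 (percentile 97.5). TRIM71, itself repressed by let-7, had a first downstream position of 3.70 (percentile 0.0174). Like L1TD1, it thus had a score of a few steps, where LIN28A had 31 steps. The TRIM71 position was centred 100 bp downstream, while that of L1TD1 lay over the start. TRIM71 had the lowest first downstream score of the 13 genes, followed by IGF2BP2 (8.64), IGF2BP3 (9.87) and DROSHA (11.1). The median of the 13 was 27.1.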

How the data were processed

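The authors aligned the reads of hiPSC MNase digestions to GRCh38, removed blacklisted regions, ran the nucMACC workflow and deposited 1 pooled list of positions, each with a score, a signal height whose scaling is not stated. Which runs were pooled and which program called the positions are not given in the sources used here. According to the methods, the 50-bp runs did not give usable nucleosome profiles and were not carried further. The methods give ranges of read numbers for the 150-bp and the 50-bp runs. No read total comes with the pooled list itself, so depth per position is unknown.

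Midpoints were set against GENCODE release 44, while the study's methods name a later release. GC content was taken over the length of a nucleosome core around each midpoint. Windows were non-overlapping, of the region's length, on its chromosome, with GC content within 1 percentage point. Starts were compared within 2 percentage points over 1001 bp. Named were the annotated features of the 3 genes, the 5 highest and 3 lowest positions and 3 widest distances of each region, and the extremes of the pathway list. The regions and lists were chosen with earlier results of these data known. The tools were NumPy 2.4.6, Numba 0.67.0, pandas 2.3.3, SciPy 1.17.1 and matplotlib 3.10.9 under Python 3.11.15, and the functions were tested on simulated data. The sequences of the highest-scoring LIN28B and L1TD1 positions are not reported here.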

Additional observations from a re-analysis of the deposited data

How the results depend on the processing

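No paired analysis was possible because libraries were pooled into 1 list and no test was made. Of 48 other settings, 29 left a value inside its 95% interval, within 10 bp or within 1.5 times the count, and 19 moved it. A value counted as unmoved could still lose its place against the chromosome. For the shares of high positions at LIN28A and L1TD1, this was so in the gene bodies and with GC content over about 1 kb. Their intervals then held the share of the chromosome. Causes were not tested. Without GC matching, the median score percentile went to 79.1 at LIN28A, 51.2 at LIN28B and 68.4 at L1TD1, the density percentile to 69.4, 32.5 and 57.2, and the share of high positions at LIN28B to 6.64%. In the gene bodies without flanks, the median score percentile was 20.1 at LIN28A, 95.6 at LIN28B and 57.8 at L1TD1, and the density percentile 17.9 at LIN28A and 26.4 at L1TD1. Windows within 2 percentage points of GC gave 83.8 for the median score of LIN28B. The mean in place of the median gave 9.35 at L1TD1. With only positions at or above the median score of the list, the density percentile was 34.9 at LIN28A and 84.1 at LIN28B, and the midpoints across the canonical start were 790 bp apart at LIN28B and 700 bp at L1TD1. The 5′-most start of LIN28B gave 180 bp. Of 6 further settings added after seeing the data, all on the 3′UTR ratios, none moved a ratio by over 1.5 times. For LIN28A they gave 0.56 without stretches of 5 kb or more that held no midpoint, and 0.75 in mostly unique bases. With 1 pooled list, the spread between cultures is unknown.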

Other observations

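The 12 hairpin genes of the let-7 family were checked for the position nearest to their centre. The nearest midpoint lay between 22 bp (MIRLET7F1) and 127 bp (MIRLET7A3) from the centre of the hairpin. The scores of these positions ran from 7.40 at MIRLET7A1 and MIR98 to 34.5 at MIRLET7A3. Their GC-matched percentiles ran from 4.98 at MIRLET7A1, and the highest were 87.0 at MIRLET7C, 85.1 at MIRLET7A3 and 80.8 at MIRLET7E.

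Along LIN28B, bins of 10 kb held between 0.92 and 1.2 times the expected midpoints. The highest ratio, 1.2, was in the first 10 kb of the gene, which holds the starts of LIN28B-202 and LIN28B-203. At L1TD1, bins of 5 kb ran from 0.84 to 1.23, with both extremes inside the gene body. At LIN28A, they ran from 0.79 in the bin that holds exon 4 to 1.09.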
